A study of Mus musculus with 12 samples.

Results

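The ADAM family of membrane proteases was followed in mouse hearts under pressure load through 7 members that are expressed broadly outside the testis: Adam12, Adam8, Adam9, Adam10, Adam15, Adam17 and Adam19. The rule lists the genes by name and uses no measured value, but it was chosen with earlier results of these data known. The members make up 7 of the 26990 genes tested. Each was read on 1 probe set of the array. The probe set of Adam12 also carries 5830403F22Rik, a long non-coding RNA whose span lies inside Adam12 in the RefSeq annotation of GRCm38.p6, and so it does not read Adam12 alone.

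Heart RNA was hybridized to 12 Affymetrix Clariom D mouse arrays, with 3 biological replicates in each of 4 groups. The groups were Adam12 knockout hearts after transverse aortic constriction (TAC), Adam12 knockout hearts after sham surgery, wild type hearts after TAC and wild type hearts after sham surgery. All mice were male C57BL/6J animals of 10 weeks, and the hearts were taken 2 weeks after surgery. TAC narrows the aortic arch, so that the left ventricle pumps against a higher pressure, and the series asks how hearts without ADAM12 change their gene expression under this load. How the knockout allele was made, and which exons it lacks, is not given in the sources used here, nor is the part of each gene that the probes cover. Signals are on the log2 scale, where a difference of 1 is a doubling, and a level is not set against the level of another gene's probe set.

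ADAM proteases are made as inactive precursors, are cut by furin-like convertases on their way to the cell surface, and then cleave the outer parts of other membrane proteins, a step called shedding. Their disintegrin domain binds integrins, and several are held in check by TIMPs. In the heart they are known for releasing EGF-like growth factors and adhesion molecules, and ADAM12 has been linked to the growth of heart muscle cells through the first of these.

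The arrays were alike in overall signal, with medians over all probe sets between 4.93 and 5.10, and the medians of the background probe sets lay between 2.96 and 3.17. Heart muscle markers were bright on every array, with a mean log2 signal over 5 markers of 17.60 to 17.73 in knockout TAC hearts, 17.97 to 17.98 in knockout sham hearts, 17.75 to 17.84 in wild type TAC hearts and 17.89 to 17.92 in wild type sham hearts. Myl7, an atrial myosin light chain, ran between 10.81 and 15.97 over the 12 arrays. The third wild type TAC array had the lowest weight when arrays were weighted by their spread, at 0.440, and several results are given without it as well.

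Adam12, which encodes meltrin alpha, was lower in knockout than in wild type hearts by a small amount. It read 4.25, 4.40 and 4.36 in knockout TAC hearts and 4.33, 4.40 and 4.32 in knockout sham hearts, against 4.56, 4.73 and 4.80 in wild type TAC hearts and 4.54, 4.46 and 4.61 in wild type sham hearts. Every knockout array lay below every wild type array, with the highest knockout value at 4.40 and the lowest wild type value at 4.46, a pattern shown by 0.193% of all genes. The mean was 4.34 ± 0.06 in knockout and 4.62 ± 0.13 in wild type hearts (SD, n = 6 each), a log2 difference of -0.28 or 0.826-fold (exact permutation p = 0.005, 2-sided, the smallest that 400 assignments within surgeries can give). The probe set was dim, brighter than 37.8% of probe sets, and how far its signal can fall was not measured here.

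Within each surgery the limma fit across all genes did not call Adam12. The knockout minus wild type difference was -0.37 ± 0.08 after TAC (standard error; adjusted p = 0.0675; -0.31 ± 0.08 and adjusted p = 0.210 without the third wild type TAC array) and -0.19 ± 0.08 after sham surgery (adjusted p = 0.894). TAC against sham gave -0.02 ± 0.08 in knockout hearts (adjusted p = 0.936) and 0.16 ± 0.08 in wild type hearts (adjusted p = 0.435), and in both genotypes the TAC and sham arrays overlapped. The order of levels was therefore knockout TAC and knockout sham together, then wild type sham and wild type TAC together.

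The genes next to Adam12 on chromosome 7 were read as well, 3 protein-coding genes on each side: Bccip, Dhx32 and Fank1 on one side, and D7Ertd443e, Dock1 and Insyn2a on the other. By limma 0 of the 6 were called between genotypes after TAC or after sham surgery, and Dock1 was the only one with an unadjusted p under 0.05 there. Dock1, a Rac activator, gave a knockout minus wild type difference of 0.24 after TAC (adjusted p = 0.142) and, with the opposite sign, of -0.20 after sham surgery (adjusted p = 0.892). It rose with TAC in knockout hearts by 0.56 (adjusted p = 0.000672) and gave 0.12 in wild type hearts (adjusted p = 0.541).

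**Figure D1:**
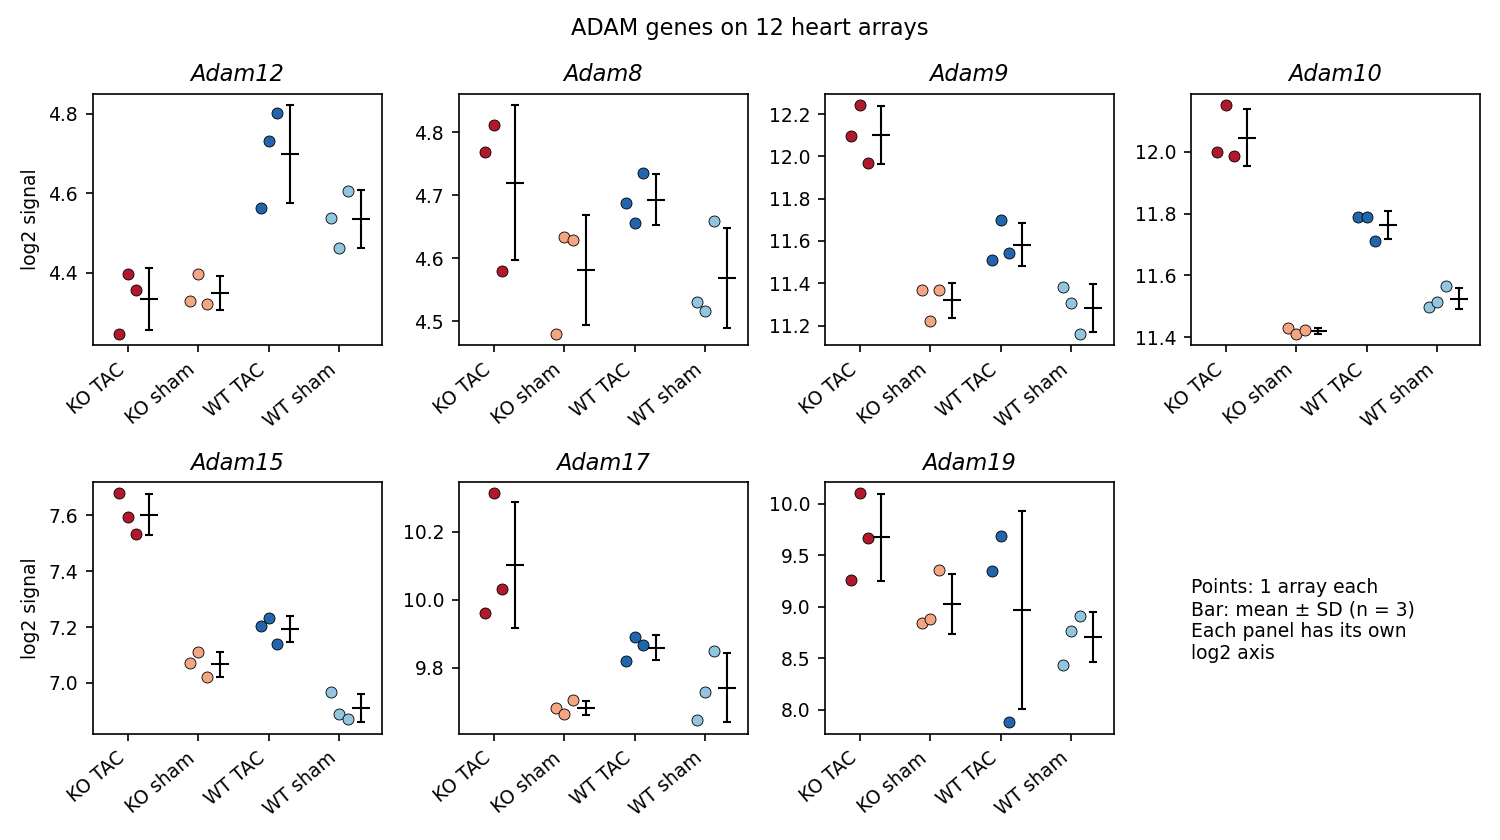
Log2 signal of the 7 ADAM genes on each of the 12 arrays, with 1 panel per gene and its own vertical scale. Groups run knockout TAC, knockout sham, wild type TAC and wild type sham, points are arrays and bars are the group mean ± SD (n = 3). Adam12 lies lower in all knockout arrays (at most 4.40) than in all wild type arrays (at least 4.46), while Adam9, Adam10 and Adam15 are highest in the knockout TAC arrays.

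TAC raised 4 of the 7 genes in knockout hearts: Adam9, Adam10, Adam15 and Adam17, by 1.34 to 1.72-fold. Of all 26990 genes, 12.8% were called by limma in this comparison and 7.08% were called higher. These shares include dim genes, while the 4 were read on probe sets brighter than 77.6% to 95.5% of probe sets. They are therefore not the shares among genes of like brightness. The median difference of the 7 genes was 0.54, against -0.03 over all genes tested. In wild type hearts 0 of the 7 were called by limma, where 0.178% of all genes were, and 3 of the 7 (Adam9, Adam10 and Adam15) had an unadjusted p under 0.05, as did 12.3% of all genes. The wild type median was 0.24, against 0.02 over all genes, and all 7 differences were positive. The 3 TAC arrays lay above the 3 sham arrays for Adam9, Adam10, Adam15 and Adam17 in knockout hearts, as for 15.4% of all genes. They did so for Adam9, Adam10 and Adam15 in wild type hearts, as for 9.03% of all genes.

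Adam9, or meltrin gamma, is a broadly expressed sheddase. It read 12.09, 12.24 and 11.97 in knockout TAC hearts and 11.37, 11.22 and 11.37 in knockout sham hearts. Wild type hearts read 11.51, 11.70 and 11.54 after TAC and 11.38, 11.31 and 11.16 after sham surgery. The knockout TAC arrays stood above all others, the wild type TAC arrays came next and did not overlap the sham arrays, and the sham arrays of both genotypes overlapped. It rose by 0.78 ± 0.09 in knockout hearts (1.72-fold, limma adjusted p = 0.000543), and the TAC difference in wild type hearts was 0.30 ± 0.09 (1.23-fold, limma adjusted p = 0.216).

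Adam10 encodes the main sheddase of Notch receptors and of several cadherins. It read 11.999, 12.152 and 11.987 in knockout TAC hearts and 11.43, 11.41 and 11.42 in knockout sham hearts. Wild type hearts gave 11.79, 11.79 and 11.71 after TAC and 11.50, 11.51 and 11.56 after sham surgery. Neighbouring groups did not overlap, and the order from low to high was knockout sham, wild type sham, wild type TAC and knockout TAC. Knockout arrays thus lay below wild type arrays after sham surgery and above them after TAC, as in 0.571% of all genes, while 0.667% crossed the other way. It rose by 0.63 ± 0.07 in knockout hearts (1.54-fold, limma adjusted p = 0.000427), and the difference in wild type hearts was 0.24 ± 0.07 (1.18-fold, limma adjusted p = 0.166).

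Adam15, or metargidin, carries an integrin-binding RGD motif in the human protein. It read 7.68, 7.59 and 7.53 in knockout TAC hearts and 7.07, 7.11 and 7.02 in knockout sham hearts. The wild type values were 7.20, 7.23 and 7.14 after TAC and 6.97, 6.89 and 6.87 after sham surgery. Here too no neighbouring groups overlapped, but the lowest group was wild type sham, with knockout sham above it. It rose by 0.54 ± 0.07 in knockout hearts (1.45-fold, limma adjusted p = 0.000615), and the difference in wild type hearts was 0.28 ± 0.07 (1.22-fold, limma adjusted p = 0.114).

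Adam17 encodes the TNF-converting enzyme, which also sheds several EGF receptor ligands. It read 9.96, 10.31 and 10.03 in knockout TAC hearts and 9.68, 9.66 and 9.70 in knockout sham hearts. Its wild type levels were 9.82, 9.89 and 9.87 after TAC and 9.65, 9.73 and 9.85 after sham surgery. The knockout TAC arrays lay above all others, and the wild type groups overlapped each other. It rose by 0.42 ± 0.09 in knockout hearts (1.34-fold, limma adjusted p = 0.0114), and the difference in wild type hearts was 0.12 ± 0.09 (limma adjusted p = 0.661).

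The upstream sequences of Adam10, Adam15 and Adam17 are shown as the promoters, among the genes that rose, that are held in the RefSeq table used here (GRCm38.p6). In it 5 of the 7 members matched, with 7 windows. Each is the 250 bases before the annotated start, 5′ to 3′ on the strand of the gene. Capitals mark GC boxes (GGGCGG, or CCGCCC where it lies on the other strand) and E-boxes (CACGTG).
Adam10, chr9:70678732-70678981, plus strand: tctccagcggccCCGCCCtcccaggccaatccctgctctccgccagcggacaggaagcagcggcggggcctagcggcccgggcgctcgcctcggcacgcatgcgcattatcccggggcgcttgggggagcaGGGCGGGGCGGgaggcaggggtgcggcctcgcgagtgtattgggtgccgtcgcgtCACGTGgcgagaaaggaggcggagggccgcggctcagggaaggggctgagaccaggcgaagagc
Adam15, chr3:89350029-89350278, minus strand: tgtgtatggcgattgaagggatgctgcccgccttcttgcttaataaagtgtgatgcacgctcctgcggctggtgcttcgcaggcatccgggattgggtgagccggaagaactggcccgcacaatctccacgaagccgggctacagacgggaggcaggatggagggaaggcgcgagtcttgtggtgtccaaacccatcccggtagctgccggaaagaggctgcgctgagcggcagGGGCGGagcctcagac
Adam17, chr12:21373633-21373882, minus strand: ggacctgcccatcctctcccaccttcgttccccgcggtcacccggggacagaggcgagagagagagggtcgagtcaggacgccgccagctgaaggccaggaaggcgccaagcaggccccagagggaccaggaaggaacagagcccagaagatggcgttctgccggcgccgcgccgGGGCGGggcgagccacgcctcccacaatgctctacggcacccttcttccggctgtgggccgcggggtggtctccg

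The window of Adam10 held 3 GC boxes, of which a pair overlaps by 1 base, and 1 E-box, and the windows of Adam15 and Adam17 held 1 GC box each. Their GC content was 74.0%, 62.0% and 70.4%, against a median of 52.4% over all 32851 windows. A GC box was found on either strand in 32.7% of all windows and an E-box in 6.02%. The letters TGANTCA of the AP-1 motif, found in 6.75% of all windows, were searched on both strands and were not in these 3 windows. The same held for TATAAA of the core promoter, found in 12.4% of all windows. It also held for CATTCC, the MCAT element of muscle genes, found in 12.6%. Such matches describe the letters and do not show that a factor binds there.

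Adam19, or meltrin beta, sheds neuregulin and is needed for heart valve formation in the mouse embryo. It was the most variable of the 7, with 9.26, 10.10 and 9.67 in knockout TAC hearts and 8.84, 8.88 and 9.36 in knockout sham hearts. The wild type arrays read 9.34, 9.68 and 7.88 after TAC and 8.44, 8.76 and 8.91 after sham surgery. The third wild type TAC array had the lowest value of all 12, below every sham array. TAC against sham gave 0.65 ± 0.39 in knockout hearts (limma adjusted p = 0.352) and 0.26 ± 0.39 in wild type hearts (limma adjusted p = 0.841). The wild type difference was 0.81 without the third wild type TAC array (adjusted p = 0.164) and -0.10 without the second (adjusted p = 0.961).

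Adam8, a protease of leukocytes, stayed within narrow limits on a dim probe set. It read 4.77, 4.81 and 4.58 in knockout TAC hearts and 4.48, 4.63 and 4.63 in knockout sham hearts, against 4.69, 4.66 and 4.74 in wild type TAC hearts and 4.53, 4.52 and 4.66 in wild type sham hearts. The TAC difference was 0.14 ± 0.08 in knockout hearts (limma adjusted p = 0.342) and 0.12 ± 0.08 in wild type hearts (limma adjusted p = 0.582).

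**Figure D2:**
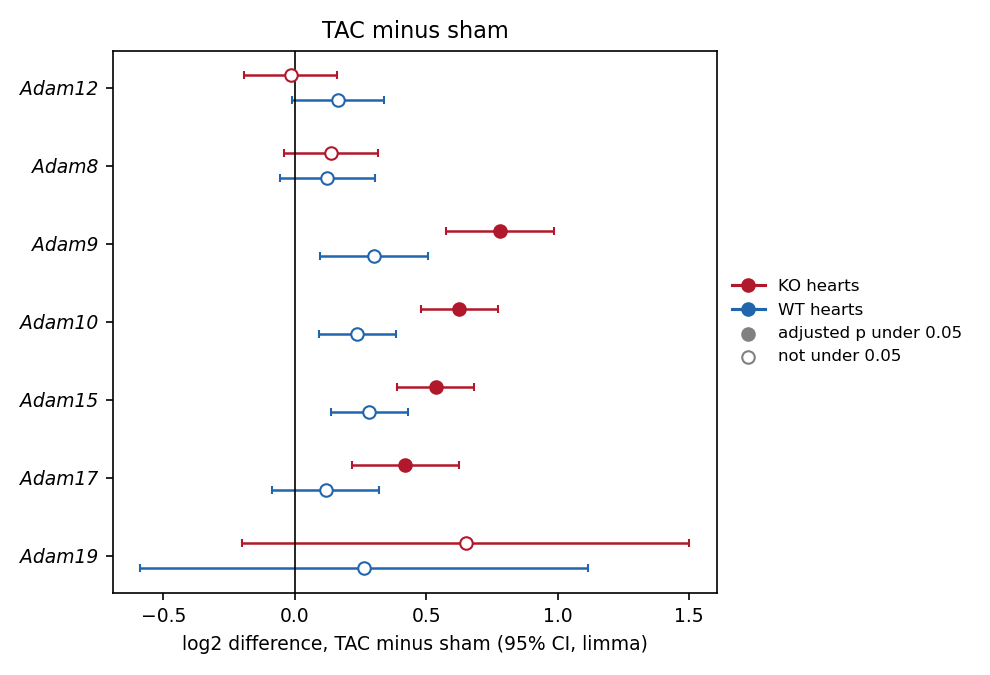
TAC minus sham log2 difference of each of the 7 ADAM genes in knockout and wild type hearts, with unadjusted 95% confidence intervals of limma as bars and filled points for an adjusted p under 0.05. Adam9, Adam10, Adam15 and Adam17 passed in knockout hearts at 0.42 to 0.78, and no member passed in wild type hearts.

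Averaged over genotypes, the same 4 genes were called by limma, Adam9 at 0.54, Adam10 at 0.43, Adam15 at 0.41 and Adam17 at 0.27, where 13.6% of all genes were called and 7.49% called higher. Adam17 was not called with the Myl7 signal as a covariate, at 0.23 (adjusted p = 0.0703). The median of the 7 was 0.41, against -0.00 over all genes. Adam19 stood at 0.46 and was not called, but without the third wild type TAC array it was called at 0.73 (adjusted p = 0.0142).

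Markers of heart cells were read for TAC in knockout hearts as well, where 7.08% of all genes were called higher and 12.8% in either direction. Of 9 fibroblast markers 8 rose with TAC in knockout hearts, and their mean log2 signal was 11.84 to 12.15 in knockout TAC hearts, 9.84 to 10.00 in knockout sham hearts, 10.31 to 11.58 in wild type TAC hearts and 9.84 to 10.06 in wild type sham hearts. Of 7 macrophage and monocyte markers 7 rose in knockout hearts, with means of 9.51 to 10.38 in knockout TAC hearts, 8.39 to 8.82 in knockout sham hearts, 9.13 to 9.48 in wild type TAC hearts and 8.49 to 8.82 in wild type sham hearts. Of 5 heart muscle markers 3 fell (Tnni3, Ryr2 and Pln) and of 7 endothelial markers 2 rose (Pecam1 and Emcn). Of 6 smooth muscle and pericyte markers Cspg4 rose, of 6 neutrophil markers Csf3r rose, and none of the lymphocyte, atrial, adipocyte or erythroid markers was called by limma. The dimmest fibroblast marker was Thy1, at a mean of 6.27 over the 12 arrays, and the dimmest macrophage marker Ccr2, at 6.29. Ccr2 read 5.29 in knockout sham hearts, where the array medians over all probe sets were 4.93 to 5.10 across the series. How far the signal of these probe sets can fall was not measured. The part of these cells in the ADAM differences was not tested. In RNA of whole tissue, more cells of a type and more RNA per cell cannot be told apart.

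Between genotypes after TAC, 0 of the 7 genes were called by limma, where 0.0111% of all genes were. An unadjusted p under 0.05 was reached by 5 of the 7, against 14.6% of all genes, with Adam12 lower and Adam9, Adam10, Adam15 and Adam17 higher in the knockout. These 4 had all 3 knockout TAC arrays above all 3 wild type TAC arrays, a pattern shown by 7.91% of all genes, while the arrays of Adam12 lay apart the other way, as in 11.3%. Adam9 was higher by 0.52 ± 0.09 (adjusted p = 0.0592), Adam15 by 0.41 ± 0.07 (adjusted p = 0.0592), Adam10 by 0.28 ± 0.07 (adjusted p = 0.0780) and Adam17 by 0.24 ± 0.09 (adjusted p = 0.252). Adam19 differed by 0.71 ± 0.39 (adjusted p = 0.433), and the median of the 7 was 0.28, against -0.04 over all genes. Without the third wild type TAC array the differences were 0.50 for Adam9, 0.38 for Adam15, 0.26 for Adam10 and 0.16 for Adam19, and none of them passed. Without the second wild type TAC array Adam9 and Adam15 passed, at 0.58 and 0.43 (adjusted p = 0.0174 and 0.0178), as they did without the third knockout TAC array (adjusted p = 0.0472 for both). When genes of mean log2 signal under 5, which include Adam12 and Adam8, were not tested, Adam9, Adam10 and Adam15 passed (adjusted p of 0.0356, 0.0404 and 0.0356). With a trended and robust variance Adam15 passed (adjusted p = 0.0486). Without the second knockout TAC array, its highest, Adam17 stood at 0.14 ± 0.08 (adjusted p = 0.555).

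Between genotypes after sham surgery the median difference was 0.01 for the 7 genes and 0.01 for all genes. By limma 0 of the 7 were called, where 0% of all genes were, and 2 of the 7 (Adam12 and Adam15) had an unadjusted p under 0.05, against 5.54% of all genes. Adam15 was higher in knockout sham than in wild type sham hearts by 0.16 ± 0.07 (adjusted p = 0.892), and the groups did not overlap, as in 6.43% of all genes. Adam10 was lower by 0.10, at -0.10 ± 0.07 (adjusted p = 0.938), and its groups did not overlap either, as in 5.90% of all genes for that direction.

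**Figure D3:**
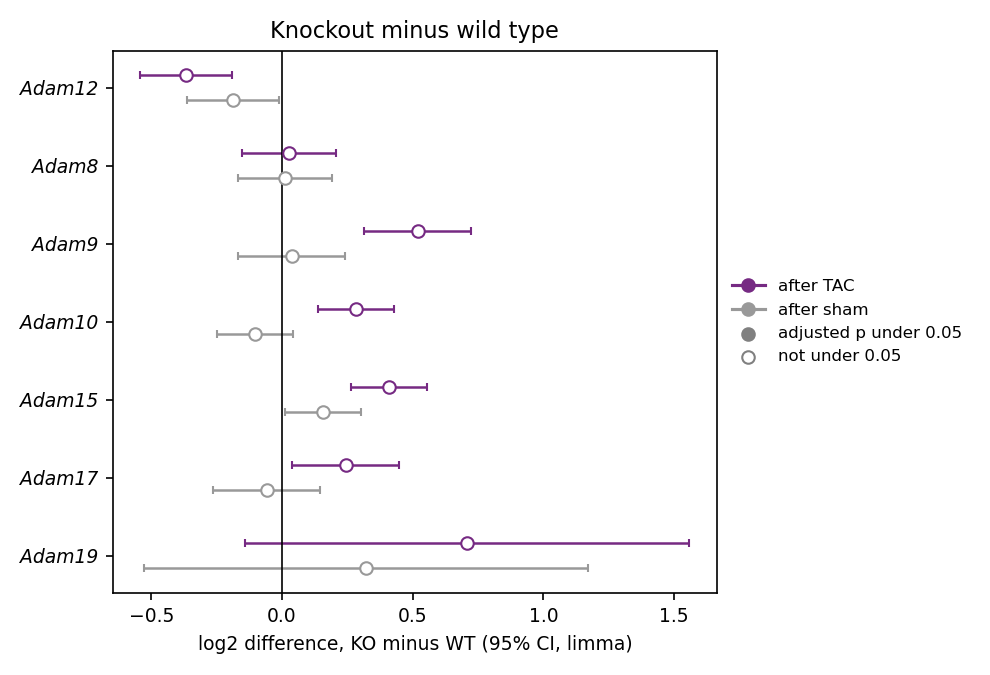
Knockout minus wild type log2 difference of each of the 7 ADAM genes after TAC and after sham surgery, with unadjusted 95% confidence intervals of limma as bars. Adam9, Adam10 and Adam15 lie 0.28 to 0.52 above 0 after TAC, Adam12 lies below 0 after both surgeries, and none passed the test.

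Whether TAC acted more strongly in the knockout was tested as the interaction of genotype and surgery, gene by gene. By limma 0 of the 7 were called, as was 0% of all genes, and 4 of the 7 (Adam9, Adam10, Adam15 and Adam17) had an unadjusted p under 0.05, against 11.0% of all genes. Their interactions were 0.48 ± 0.13 for Adam9 (adjusted p = 0.268), 0.39 ± 0.09 for Adam10 (adjusted p = 0.259), 0.25 ± 0.09 for Adam15 (adjusted p = 0.358) and 0.30 ± 0.13 for Adam17 (adjusted p = 0.431). That of Adam17 was 0.20 without the second knockout TAC array (adjusted p = 0.609). The difference between knockout and wild type hearts in the response to TAC was thus positive for each of the 4 and passed the adjusted test for none. These 4 were also the members called for TAC on the same knockout arrays, which made a positive sign likely. The interactions of the other members were -0.18 ± 0.11 for Adam12 (adjusted p = 0.589), 0.02 ± 0.12 for Adam8 (adjusted p = 0.974) and 0.39 ± 0.55 for Adam19 (adjusted p = 0.827).

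The proteins that work with ADAMs were followed through lists of their genes. Of the 29 list genes called for TAC in knockout hearts, 16 remained called with each of the 12 arrays left out in turn, and 13 lost the call without at least 1 array. Over all genes, 7.08% were called higher with TAC in knockout hearts and 12.8% in either direction, and 0.178% were called in wild type hearts. These shares apply to each list below. Among the partners of ADAM10 and ADAM17, 3 of 8 measured genes rose with TAC in knockout hearts. The tetraspanins Tspan17 and Tspan14, partners of ADAM10, rose by 0.80 ± 0.11 and 0.30 ± 0.09. The call of Tspan14 was lost without any 1 of 9 arrays (adjusted p up to 0.159). Rhbdf1, an iRhom that escorts ADAM17, rose by 0.40 ± 0.07. The wild type differences of Tspan17, Tspan14 and Rhbdf1 were 0.42, 0.20 and 0.17, and 0 of 8 were called. Without the third wild type TAC array Tspan17 was called in wild type hearts, at 0.56 ± 0.08 (adjusted p = 0.0181).

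Among convertases and inhibitors, 3 of 8 measured genes rose and 1 fell in knockout hearts, against 12.8% of all genes called in either direction. The inhibitor Timp1 rose by 3.11 ± 0.35, with 8.45 ± 0.78 in knockout TAC hearts and 5.34 ± 0.05 in knockout sham hearts, against 6.21 ± 0.62 in wild type TAC hearts and 5.39 ± 0.10 in wild type sham hearts (SD, n = 3 each). Timp2 rose by 0.79 ± 0.16 and Reck, a membrane-anchored inhibitor, by 0.45 ± 0.12, a call lost without any 1 of 4 arrays (adjusted p up to 0.108). Timp4, the TIMP known from heart muscle, fell by 2.21, at -2.21 ± 0.44 (limma adjusted p = 0.00688), and gave -1.48 ± 0.44 in wild type hearts (adjusted p = 0.194). In wild type hearts 0 of 8 were called with all arrays, but without the third wild type TAC array Timp4 was, at -2.07 ± 0.31 (adjusted p = 0.0226).

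Of the EGF-like ligands that ADAMs shed, 1 of 6 measured rose and 1 fell in knockout hearts. Over all genes 12.8% were called in either direction. Epiregulin (Ereg) rose by 1.37 ± 0.21, with 6.08 ± 0.04 in knockout TAC hearts and 4.71 ± 0.06 in knockout sham hearts, against 5.16 ± 0.53 in wild type TAC hearts and 4.73 ± 0.25 in wild type sham hearts (SD, n = 3 each). Its mean sham levels lay below the array medians of 4.93 to 5.10, and how far its signal can fall was not measured. Egf fell by 0.50, at -0.50 ± 0.13, a call lost without any 1 of 5 arrays (adjusted p up to 0.115). The list's median was -0.00 in knockout hearts, against -0.03 over all genes. Of the 8 ligands listed, Hbegf and Areg were not among the genes tested, so their response to TAC is not known from this reading.

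Of 21 other measured substrates 10 rose and 0 fell in knockout hearts, where 7.08% of all genes were called higher. The median was 0.39, against -0.03 over all genes. The hyaluronan receptor Cd44 rose by 1.25 ± 0.12, the membrane chemokine Cxcl16 by 1.21 ± 0.17 and the adhesion molecule Vcam1 by 1.03 ± 0.20. The other 7, named after their values were seen, were the TNF receptors Tnfrsf1a and Tnfrsf1b (0.57 and 0.92), the receptor kinase Axl (0.74), the adhesion molecule Icam1 (0.70), the membrane chemokine Cx3cl1 (0.87), the Notch ligand Jag1 (0.39) and Igfbp5 (0.73). With single arrays left out, 5 to 11 of the 21 rose, the fewest without the third knockout sham array, and the calls of Tnfrsf1a, Tnfrsf1b, Icam1, Cx3cl1, Jag1 and Igfbp5 were each lost without at least 1 array. The endothelial cadherin Cdh5 gave 0.31 (adjusted p = 0.0552). The wild type differences of Cd44, Cxcl16 and Vcam1 were 0.40, 0.74 and 0.40, and 0 of 21 were called, while Cxcl16 was called at 0.88 ± 0.17 without the third wild type TAC array (adjusted p = 0.0418).

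Of 11 measured genes for integrins, adaptors and other proteins linked to ADAM12, 7 rose and 1 fell in knockout hearts. Over all genes 7.08% were called higher and 12.8% in either direction. Alpha-actinin 1 (Actn1) rose by 1.50 ± 0.23, and the integrin chains Itga9 and Itgb1 by 1.32 ± 0.16 and 0.54 ± 0.08. Gnai2, an inhibitory G protein subunit, rose by 0.59 ± 0.09. The others that rose, named after their values were seen, were Sh3pxd2b (0.88), Itgb3 (0.44) and Pacsin3 (0.26). With single arrays left out, 5 to 7 of the 11 rose. The call of Pacsin3 was lost without any 1 of 11 arrays (limma adjusted p up to 0.155). That of Itgb3 was lost without any 1 of 5 (limma adjusted p up to 0.137). The gene that fell, named after its value was seen, was Pik3r1, a regulatory subunit of PI3-kinase, at -1.02 ± 0.24 (limma adjusted p = 0.0173), a call lost without any 1 of 4 arrays (adjusted p up to 0.0802). The wild type differences were 0.52 for Actn1, 0.65 for Itga9, 0.09 for Itgb1, 0.34 for Gnai2 and -0.60 for Pik3r1, with 0 of 11 called. Among 25 other measured ADAM genes, most of them known from the testis, 1 rose and 1 fell, which does not exceed the 12.8% of all genes called. They were Adam5, by 0.24 ± 0.07 upward, and Adam22, which has no protease activity, by -0.47 ± 0.10. Adam5 was dim, with means of 4.77 in knockout TAC and 4.53 in knockout sham hearts, below the array medians over all probe sets. The call of Adam5 was lost without any 1 of 8 arrays (adjusted p up to 0.150), and Adam22 was called in wild type hearts as well without the third wild type TAC array, at -0.41 ± 0.08 (adjusted p = 0.0481). No gene of these lists was called between genotypes after TAC, after sham surgery or in the interaction. Some lay close to the cut-off after TAC, such as Timp1, higher in the knockout by 2.23 ± 0.35, and Cd44, by 0.83 ± 0.12 (limma adjusted p = 0.0592 for both). In that comparison 6 of 8 convertases and inhibitors and 19 of 21 other substrates had positive differences. The alternatives were not run on list genes for the genotype comparisons or the interaction.

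**Figure D4:**
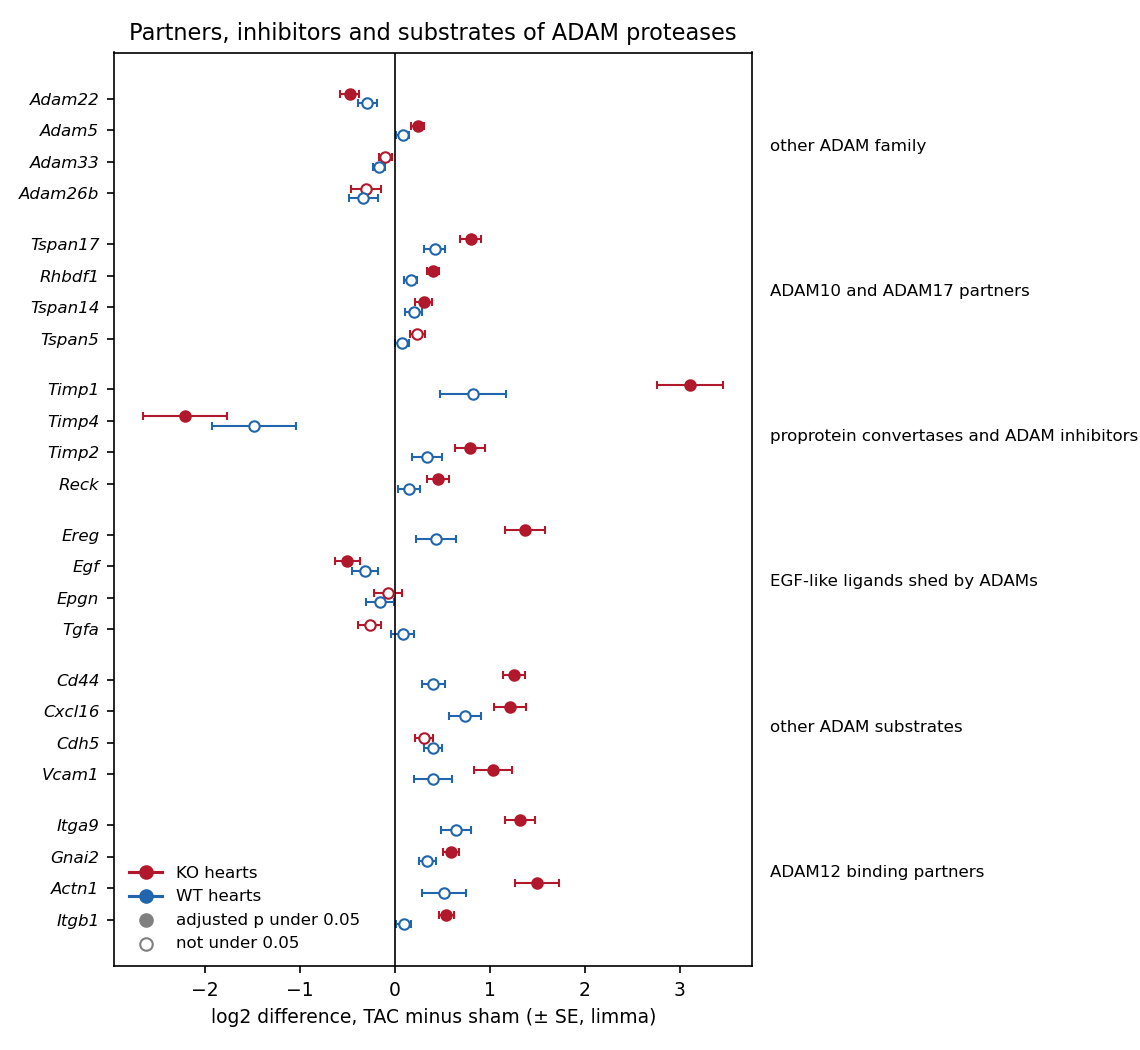
TAC minus sham log2 difference in knockout and wild type hearts for genes of the lists around the ADAM proteases, up to 4 per list by the smallest p for TAC averaged over genotypes, with limma standard errors as bars and filled points for an adjusted p under 0.05. The knockout values run from Timp4 at -2.21 to Timp1 at 3.11, and none of the wild type values passed the test with all 12 arrays.

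The genes most alike to each member over the 12 arrays were sought among 8044 or 8045 genes with a mean log2 signal of at least 6, by Pearson's r over arrays that share groups. Adam9 was nearest to Tln1, encoding talin 1, at r = 0.99, and then to Anxa2 and Txndc5. Adam10 was nearest to Itpripl2, Mtmr6 and Naip2 and Adam15 to Esyt1, Layn and Gipc1, with r = 0.99 for Itpripl2 and r = 0.98 for Esyt1. Adam17 was nearest to Slitrk4 at r = 0.98, Rcc2 and Pik3cg. For these 4 members, each of the named genes was called higher with TAC in knockout hearts. The choice by r over the same 12 arrays made this likely, because the 4 members were themselves called, and it is no separate result. Adam12 was nearest to Ppp1r2 at r = 0.85, and Adam8 to Mfsd12 at r = 0.90, neither of which was called.

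Adam19 was nearest to Thumpd3, Ascc2 and Arntl, each at r = 0.92, and none of the 3 was called with TAC in knockout hearts. Arntl, which encodes a core factor of the circadian clock, was chosen for display after its values were seen, because it moved over the widest range of the 3. It read 10.06, 10.64 and 9.93 in knockout TAC hearts and 9.32, 9.38 and 9.86 in knockout sham hearts, against 9.76, 10.57 and 7.16 in wild type TAC hearts and 9.01, 8.74 and 9.84 in wild type sham hearts. The third wild type TAC array was lowest for both genes and the second knockout TAC array highest. The time of day at which hearts were taken is not given in the sources used here, and its part was not tested.

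**Figure D5:**
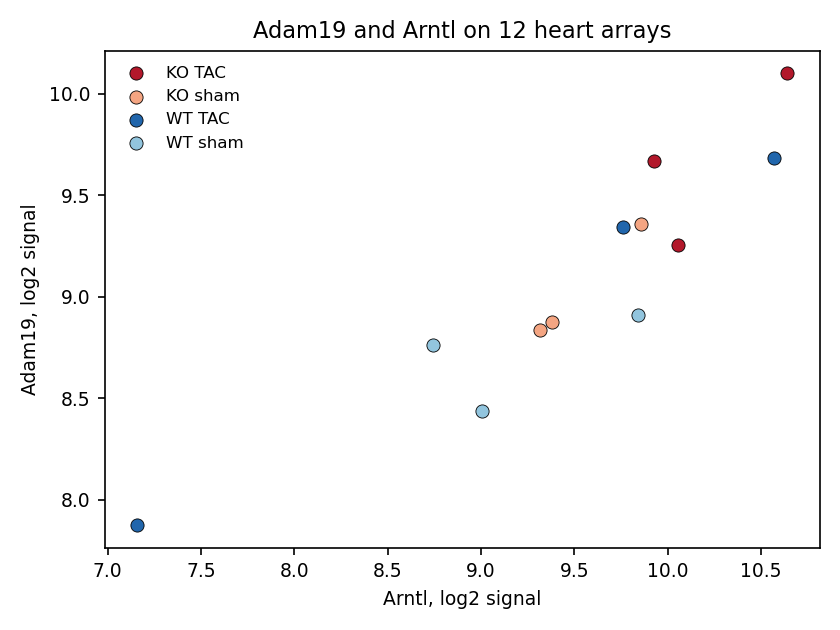
Log2 signal of Adam19 (vertical) against Arntl (horizontal) on the 12 arrays, 1 point per array, coloured by group. The third wild type TAC array is lowest on both axes, at 7.88 for Adam19 and 7.16 for Arntl, and the second knockout TAC array is highest, at 10.10 and 10.64.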

How the data were processed

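The authors deposited 1 table of log2 signals for 65527 probe sets on 12 arrays, made from 250 ng of RNA per heart. Per the submitters' processing notes they used Affymetrix Expression Console, and the sources used here do not give its normalization, summarization or annotation build. The log2 scale of the deposited values was read from their range, 1.27 to 19.93. The 6732 control probe sets were not used. Of the rest, 27268 had 1 gene symbol, 1932 several and 29595 none in the platform annotation, and 757 symbols were updated through RefSeq tables.

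A gene was its brightest probe set with 1 symbol, and Adam12 was added on its shared probe set, giving 26990 genes, with no filter on dim ones. limma 3.58.1 in R 4.3.3 fitted 1 mean per group over all 12 arrays, 2-sided, with Benjamini-Hochberg adjustment over all genes, with calls made at an adjusted p below 0.05. "Rose" and "fell" refer to such calls. The procedure was tested on simulated data. The number of arrays limits the precision.

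The members, lists and rules were chosen with earlier results of these data known. Named were all 7 members, up to 4 genes per list by the smallest p for TAC averaged over genotypes, 3 neighbours of Adam12 on each side and the 3 most alike genes per member. Replicate numbers were checked as pairs: deviations from group means correlated at -0.07 to 0.25, with 7 of 12 pairs over 0.1. All 3 pairs passed only for TAC against sham in the knockout. Alternatives were dim-gene and probe-set filters, scaling, variance and array weights, Myl7 as a covariate, the replicate block, only the groups compared, and each array left out. Leaving single arrays out for the list genes was chosen after seeing the data. Some genes of the lists were not analysed here.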

Additional observations from a re-analysis of the deposited data

Results flagged for a closer look

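Adam10 had its knockout arrays all above the wild type arrays after TAC (11.999, 12.152 and 11.987, against 11.79, 11.79 and 11.71) and all below them after sham surgery (11.43, 11.41 and 11.42, against 11.50, 11.51 and 11.56). The difference between the genotype differences was 0.39 ± 0.09 and did not pass in limma over all genes (adjusted p = 0.259). The same crossing of groups was found in 154 of 26990 genes (0.571%), and the opposite crossing in 180 (0.667%).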

How the results depend on the processing

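With the 22 alternatives for the 7 genes, 4 of the 7 genes were called for TAC in knockout hearts and 0 for TAC in wild type hearts and for genotype after sham surgery, and 0 in 21 alternatives for the interaction. The alternative without genes of mean log2 signal under 5 did not test Adam12 and Adam8, so its counts are of the other members. For genotype after TAC the count of 0 became 3 without genes of mean log2 signal under 5 (Adam9, Adam10 and Adam15), 1 with a trended and robust variance (Adam15) and 3 with the replicate block (Adam12, Adam9 and Adam15). It ranged from 0 to 2 with single arrays left out, the 2 being Adam9 and Adam15 without wild type TAC replicate 2 or knockout TAC replicate 3. The replicate block changed no other call of the 7 genes. Averaged over genotypes the count was 3 with Myl7 as a covariate, when Adam17 was lost, and at most 5. The Adam12 genotype difference ran from -0.31 to -0.23. With single arrays left out the exact permutation p within surgeries was 0.005 to 0.01. The largest p, 0.031, came with the replicate block. That setting used another test, sign flips of the differences between same-numbered arrays, which has fewer possible assignments and cannot give a smaller p. Signs of uncalled values turned for Adam12 with TAC in knockout hearts (0.0459 after quantile normalization, 0.0190 after centring) and, with array weights, for the interactions of Adam8 (-0.0250) and Adam19 (-0.0256). With single arrays left out, signs turned for Adam12 with TAC in knockout hearts (-0.0479 to 0.0274), Adam8 after sham surgery (-0.0145 to 0.0625), after TAC (-0.0187 to 0.0971) and in the interaction (-0.0354 to 0.0851), Adam9 after sham surgery (-0.0242 to 0.0865), and Adam19 for TAC in wild type hearts (-0.0950 to 0.8098) and the interaction (-0.1597 to 0.7451). Over all genes the calls ran from 2098 to 4438 for TAC in knockout hearts (3444 as reported), 0 to 352 in wild type hearts (48), 0 to 774 for genotype after TAC (3), 0 to 1 after sham surgery (0) and 0 to 151 for the interaction (0). The causes were not tested. Adam12 and Adam8 were read on dim probe sets, and how far their signal can move was not measured.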
